A study of Mus musculus with 5 samples.

Results

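The MHC class I presentation genes were examined in injured mouse retina, as the 10 rows of the count table whose gene symbols are Nlrc5, H2-K1, H2-D1, B2m, Psmb8, Psmb9, Psmb10, Tap1, Tap2 and Tapbp, out of 25655 symbols in all. RNA was sequenced from whole retinas of wildtype C57BL/6 mice of either sex, 8 to 10 weeks old, in which the left optic nerve had been crushed (ONC), and every retina of the comparison was injured and was taken 7 days after ONC, 1 retina per mouse. The 3 control mice (DMSO replicates 1, 2 and 3) received the vehicle, and the 2 treated mice (Sorbinil replicates 1 and 3) received Sorbinil, an inhibitor of aldose reductase, at 10 mg/kg, with intraperitoneal injections that began 24 h before ONC and were then given daily. No uninjured retina was part of the comparison, and the second Sorbinil mouse of the study, whose library was set aside after a principal component analysis, is not analysed here. The question was whether Sorbinil treatment changed the transcripts of class I antigen presentation in the injured retina.

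Class I molecules display peptides from proteins made inside a cell to CD8 T cells, and are carried at low levels by neurons and more highly by microglia and endothelium. The proteasome cuts proteins into peptides, and on exposure to interferon its catalytic subunits are exchanged for the immunoproteasome subunits encoded by Psmb8, Psmb9 and Psmb10. The peptides pass into the endoplasmic reticulum through the transporter made of Tap1 and Tap2, and tapasin (Tapbp) bridges the transporter to an empty class I molecule, which is a heavy chain (H2-K1 or H2-D1, the classical heavy chains of C57BL/6 mice) bound to the light chain B2m. NLRC5 is the transactivator of these genes and acts at class I promoters together with RFX, NF-Y and CREB proteins, while NF-kB and interferon-responsive factors bind neighbouring elements.

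The promoters of the heavy and light chains are shown because these chains must pair. In Sorbinil replicate 1, a library that stood apart from the others (below), H2-D1 was at 135% of the DMSO mean, whereas H2-K1 (73.9%) and B2m (47.3%) were below it. No such split was seen in Sorbinil replicate 3, where H2-D1 (107%), H2-K1 (108%) and B2m (102%) were all near the DMSO mean. Whether the promoters bear on the split in Sorbinil replicate 1 was not tested. The RefSeq promoter windows (GRCm38.p6) run from 250 bases before to 50 bases after the gene start, and 8 of the 10 genes matched one, all but Nlrc5 and Tap2. The windows are chr17:34000298-34000597 on the minus strand for H2-K1, chr17:35262844-35263143 on the plus strand for H2-D1 and chr2:122147437-122147736 on the plus strand for B2m, written 5′ to 3′ with capitals for matches to the NF-kB consensus, the core of the interferon-stimulated response element and the CCAAT box bound by NF-Y.
H2-K1: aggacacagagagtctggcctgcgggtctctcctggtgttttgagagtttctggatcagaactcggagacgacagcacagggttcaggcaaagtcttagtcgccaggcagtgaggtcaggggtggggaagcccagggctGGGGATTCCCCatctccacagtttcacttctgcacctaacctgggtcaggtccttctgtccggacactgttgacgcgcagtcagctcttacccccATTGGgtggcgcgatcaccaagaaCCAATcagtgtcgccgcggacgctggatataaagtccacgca
H2-D1: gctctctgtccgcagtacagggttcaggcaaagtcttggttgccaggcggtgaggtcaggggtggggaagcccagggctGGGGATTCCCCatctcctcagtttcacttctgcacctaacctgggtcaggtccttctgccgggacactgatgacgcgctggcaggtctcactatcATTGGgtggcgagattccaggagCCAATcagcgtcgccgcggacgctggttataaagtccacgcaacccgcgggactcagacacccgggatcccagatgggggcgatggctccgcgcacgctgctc
B2m: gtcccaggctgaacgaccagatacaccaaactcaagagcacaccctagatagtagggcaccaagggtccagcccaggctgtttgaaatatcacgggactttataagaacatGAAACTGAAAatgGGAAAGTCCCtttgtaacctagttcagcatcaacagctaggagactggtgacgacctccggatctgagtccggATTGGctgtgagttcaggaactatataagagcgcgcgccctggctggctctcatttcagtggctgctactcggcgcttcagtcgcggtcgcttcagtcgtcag
H2-K1 and H2-D1 shared an unbroken run of 47 bases, and in both windows the first base of the NF-kB match lay 95 bases before the next CCAAT box match. In B2m this distance was 73 bases, and its longest run shared with H2-K1 was 8 bases.

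Motifs were searched on both strands, and some matches overlap (the NF-kB consensus is nearly palindromic, and H2-K1 and H2-D1 each hold 2 overlapping matches to it). The NF-kB consensus was found in 3 of the 8 windows (H2-K1, H2-D1 and B2m) and in 8.46% of 32841 RefSeq promoter windows. The interferon-stimulated response element core (GAAA, any 2 bases, GAAA) was found in B2m alone of the 8 and in 3.44% of all windows. Only exact matches were counted, so H2-K1 and H2-D1 may hold an element that differs from these letters. The CREB half-site TGACG was found in 5 of the 8 windows and in 20.8% of all, and the box CCAAT in 6 of the 8 and in 37.4% of all. The windows of Psmb8 and Psmb10 held none of these letters. The gamma-activated site (GAS), also searched, was found in Psmb8 alone of the 8 and in 8.30% of all windows. Psmb9 and Tap1 are transcribed away from each other, and their windows have 275 of 300 bases in common on opposite strands.

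Counts on genes totalled 56096541 to 90288552 per retina, and values are given as CPM (counts scaled to a common library size by the TMM method, which corrects library size for a few dominant genes). Values per retina are listed in the order of DMSO replicates 1, 2 and 3 and then Sorbinil replicates 1 and 3. Sorbinil replicate 1 stood apart from the other libraries. Its counts differed from each of the other 4 retinas by a chi-square per degree of freedom of 172 to 402, compared to 24.6 to 97.8 among those 4 retinas. The 6 rod markers summed to 111803 CPM in it and to 57045 to 80213 CPM in the others, and the 8 Müller glia markers summed to 1974 CPM in it and to 5289 to 6171 CPM in the others. Log2 fold changes are therefore also given without it, and ratios are shown for each retina. Abundant rod transcripts in all 5 libraries match the label of whole retina. In bulk tissue, fewer cells of a type and less RNA per cell cannot be told apart.

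None of the 10 genes passed the threshold of the study, which asks for a change of 2-fold or more with p no higher than 0.1 before adjustment (edgeR quasi-likelihood test), beside 1.71% of the 14992 genes tested. At an adjusted p-value under 0.05 the share called was 0% of all genes, while 751 genes had an unadjusted p-value under 0.05 and the DESeq2 Wald test called 21 genes. Of the 10 log2 fold changes (Sorbinil compared to DMSO), each also tested with an exact two-sided permutation test whose smallest p over the 10 groupings of 5 retinas is 0.1, 9 were negative and 1, that of H2-D1, was positive. Their median was -0.40, compared to -0.008 over all genes tested. The 1 gene with a p-value of at most 0.1 was Psmb10, which was lower, as were 4.33% of all genes at that p-value. Tapbp narrowly missed this p-value and passed it under some alternatives. In 2 genes, Psmb10 and Tapbp, both Sorbinil retinas were below every DMSO retina, as in 10.5% of all genes. In 0 of the 10 were both above every DMSO retina, as in 12.8% of all genes. Shares out of 10 genes are coarse, and nothing particular to the class I genes is read from them.

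The DMSO retinas differed among themselves in these genes. DMSO replicate 2 was the highest of the 5 retinas in 8 of the 10 genes, and Sorbinil replicate 1 was the lowest in 7. Relative to the DMSO mean, the median log2 level of the 10 genes was -0.01, 0.24 and -0.42 with DMSO, against -0.81 and -0.13 with Sorbinil, while the median over all genes tested stayed near 0 in each. DMSO replicate 3 was thus below Sorbinil replicate 3, and only Sorbinil replicate 1 lay outside the DMSO range. Without Sorbinil replicate 1 the median log2 fold change of the 10 genes was -0.13, and without Sorbinil replicate 3 it was -0.81.

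**Figure D1:**
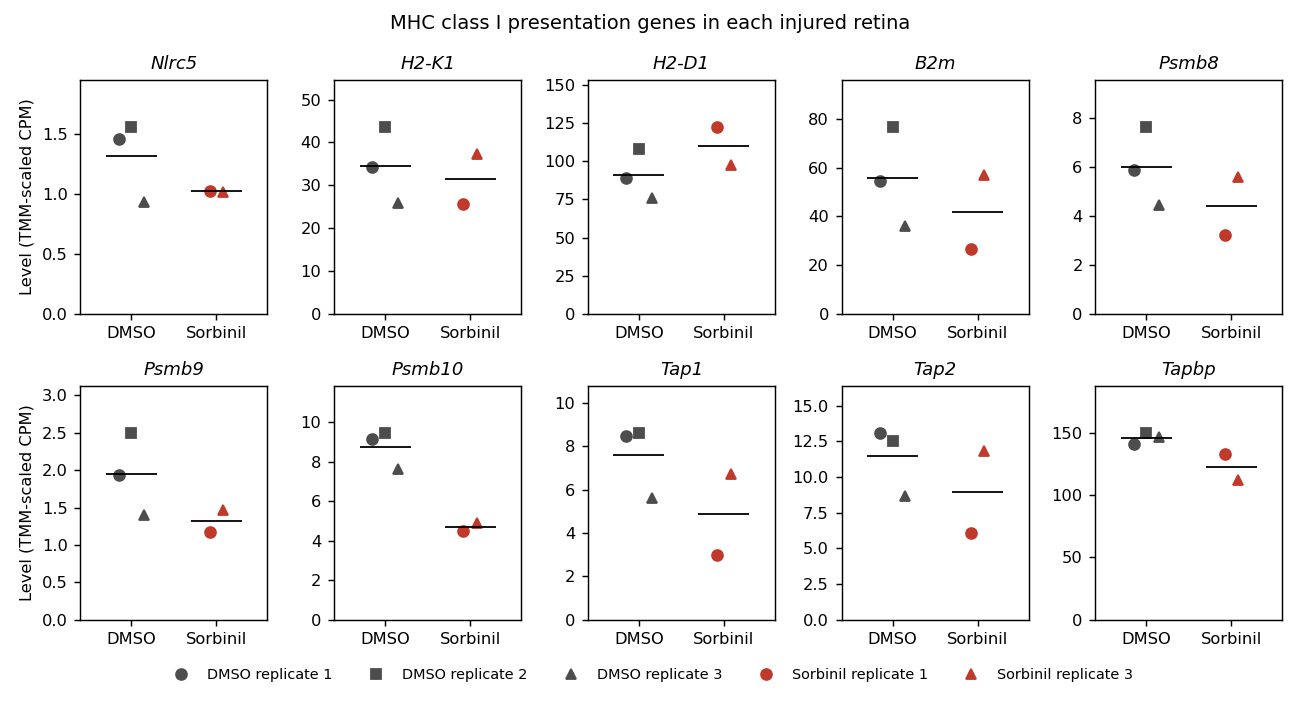
Level of each class I presentation gene in TMM-scaled CPM (y axis, from 0) in the 3 DMSO and 2 Sorbinil retinas (x axis), with 1 point per retina, the marker shape for the replicate number and a line at the group mean. The groups are apart in Psmb10 and Tapbp, both lower with Sorbinil, and overlap in the other 8 genes.

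Nlrc5, the transactivator (ENSMUSG00000074151, GRCm39 chromosome 8, 95160984 to 95253900, plus strand), was the least abundant of the 10 per kb of exon. Its level was 1.46, 1.56 and 0.936 CPM with DMSO, against 1.03 and 1.02 CPM with Sorbinil. The pair of Sorbinil retinas lay between the lowest and the other DMSO retinas, so the groups overlapped. The group means were 1.32 ± 0.336 CPM (SD, n = 3) and 1.02 ± 0.0076 CPM (SD, n = 2), with a log2 fold change of -0.37 (SE 0.33; edgeR p = 0.309, exact permutation p = 0.4, adjusted p = 0.758). These values rest on 52 to 141 counts per retina, and the log2 fold change was also -0.37 without Sorbinil replicate 1.

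The heavy chains H2-K1 (ENSMUSG00000061232, chromosome 17, 34214987 to 34219321, minus strand) and H2-D1 (ENSMUSG00000073411, chromosome 17, 35481691 to 35486475, plus strand) lay on opposite sides of the DMSO mean in Sorbinil replicate 1. H2-K1 was 34.2, 43.7 and 25.9 CPM with DMSO, against 25.5 and 37.3 CPM with Sorbinil. Sorbinil replicate 1 was close to the lowest DMSO retina and Sorbinil replicate 3 lay within the DMSO range. The log2 fold change of H2-K1 was -0.14 (SE 0.27; edgeR p = 0.629, exact permutation p = 0.7, adjusted p = 0.865), and it was 0.12 without Sorbinil replicate 1.

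H2-D1 was 89.3, 108.0 and 75.9 CPM with DMSO, against 122.9 and 97.4 CPM with Sorbinil. Here Sorbinil replicate 1 was the highest of all 5 retinas, at 135% of the DMSO mean, and the groups overlapped. The log2 fold change was 0.27 (SE 0.19; edgeR p = 0.209, exact permutation p = 0.4, adjusted p = 0.758), and 0.11 without Sorbinil replicate 1. Per kb of exon, H2-D1 exceeded H2-K1 by 2.78-, 2.63- and 3.12-fold with DMSO, against 5.12- and 2.78-fold with Sorbinil. The ratio was thus higher than in the DMSO retinas in 1 of the 2 treated retinas, with a log2 difference of 0.41 (exact permutation p = 0.3, adjusted p = 0.36 over 6 ratios). Reads of H2 genes can be shared between near-identical copies: 6.83% of 75-base windows of H2-D1 transcripts and 1.51% of those of H2-K1 were also found in transcripts of other genes (17 genes for H2-D1, most often H2-Q1, H2-T9 and H2-T23, and 13 for H2-K1), so both values carry some uncertainty. Annotated noncoding RNAs also cover 26.8% of the exons of H2-K1 and 24.2% of those of H2-D1 on the opposite strand.

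B2m, the light chain shared by all class I molecules (ENSMUSG00000060802, chromosome 2, 121977957 to 121983594, plus strand), was among the most variable of the 10 genes within each group. Its level was 54.5, 76.9 and 36.2 CPM with DMSO, against 26.4 and 57.0 CPM with Sorbinil. Sorbinil replicate 1 was the lowest retina, at 47.3% of the DMSO mean, and Sorbinil replicate 3 was at 102% of it. The log2 fold change was -0.42 (SE 0.43; edgeR p = 0.368, exact permutation p = 0.5, adjusted p = 0.766) with a 2.13-fold spread among the DMSO retinas alone, and it was 0.04 without Sorbinil replicate 1. Without Sorbinil replicate 3 it was -1.08 (edgeR adjusted p = 0.0697), past the study threshold, in a fit that called 2903 of 15266 genes. The level of H2-D1 relative to B2m, per kb, was 1.15, 0.988 and 1.48 with DMSO, against 3.27 and 1.20 with Sorbinil. In Sorbinil replicate 1 the heavy chain H2-D1 and its light chain thus departed in opposite directions from the DMSO retinas (log2 difference between groups 0.74, exact permutation p = 0.3, adjusted p = 0.36).

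Of the immunoproteasome subunits, Psmb10 showed the clearest difference. Psmb10, which encodes the inducible subunit MECL-1 (ENSMUSG00000031897, chromosome 8, 106662362 to 106665077, minus strand), was 9.12, 9.46 and 7.61 CPM with DMSO, against 4.49 and 4.89 CPM with Sorbinil. Both Sorbinil retinas were below every DMSO retina, at 51.4% and 56.0% of the DMSO mean, and the retinas of each group lay close together. The mean was 8.73 ± 0.983 CPM (SD, n = 3) with DMSO compared to 4.69 ± 0.284 CPM (SD, n = 2) with Sorbinil, a 1.86-fold difference with a log2 fold change of -0.90 (SE 0.19; edgeR p = 0.00347, exact permutation p = 0.1). This size is under the 2-fold threshold of the study, and the p-value adjusted over all genes was 0.758. The difference did not rest on 1 treated retina, with log2 fold changes of -0.83 when Sorbinil replicate 1 was left out and -0.96 when Sorbinil replicate 3 was. The DESeq2 Wald test gave an adjusted p of 0.0182, within a range of 0.0127 to 1.00 over the 14 alternatives.

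Psmb8 encodes LMP7 (ENSMUSG00000024338, chromosome 17, 34416690 to 34420428, plus strand). It was 5.87, 7.64 and 4.43 CPM with DMSO, against 3.22 and 5.58 CPM with Sorbinil. Only Sorbinil replicate 1 was below the DMSO range, and the log2 fold change was -0.44 (SE 0.35; edgeR p = 0.253, exact permutation p = 0.4) with all retinas and -0.09 without that one. Psmb9 encodes LMP2 (ENSMUSG00000096727, chromosome 17, 34400960 to 34406738, minus strand), and was 1.93, 2.50 and 1.40 CPM with DMSO, against 1.18 and 1.47 CPM with Sorbinil. Both Sorbinil retinas were below the DMSO mean, but Sorbinil replicate 3 was above DMSO replicate 3. The log2 fold change of Psmb9 was -0.55 (SE 0.34; edgeR p = 0.157, exact permutation p = 0.3), and -0.40 without Sorbinil replicate 1.

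Each inducible subunit takes the place of a constitutive one (Psmb8 that of Psmb5, Psmb9 that of Psmb6 and Psmb10 that of Psmb7), and their ratio within a library does not depend on library scaling. The constitutive subunits had log2 fold changes of -0.02 (Psmb5; edgeR p = 0.930, exact permutation p = 1), -0.05 (Psmb6; edgeR p = 0.834, exact permutation p = 1) and -0.07 (Psmb7; edgeR p = 0.647, exact permutation p = 0.7). These small values average treated retinas that differed. Psmb5 was 76.7, 81.7 and 91.9 CPM with DMSO, against 95.7 and 69.4 CPM with Sorbinil. Psmb6 was 89.4, 94.0 and 107.3 CPM, against 113.8 and 73.9 CPM, and Psmb7 was 75.1, 78.6 and 89.8 CPM, against 84.3 and 70.3 CPM. Sorbinil replicate 3 was thus below every DMSO retina for each, and Sorbinil replicate 1 above them for Psmb5 and Psmb6. Per kb of exon, the ratio of Psmb10 to Psmb7 was 0.422, 0.419 and 0.295 with DMSO, against 0.185 and 0.242 with Sorbinil. The groups did not overlap in this ratio. They overlapped for Psmb8 to Psmb5, with 0.0253 to 0.0492 in DMSO and 0.0177 and 0.0423 in Sorbinil retinas, and for Psmb9 to Psmb6, with 0.00755 to 0.0154 in DMSO and 0.00598 and 0.0115 in Sorbinil retinas.

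The log2 difference in the ratio was -0.82 for Psmb10 to Psmb7 (exact permutation p = 0.2), -0.43 for Psmb8 to Psmb5 (exact permutation p = 0.6) and -0.45 for Psmb9 to Psmb6 (exact permutation p = 0.4), two-sided, with adjusted p = 0.6 for each over the 3 ratios. The mean of the 3 log2 ratios differed by -0.57 (exact two-sided permutation p = 0.3), which is no larger than the spread between retinas. Leaving out Sorbinil replicate 1 gave -0.13, and leaving out Sorbinil replicate 3 gave -0.998.

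**Figure D2:**
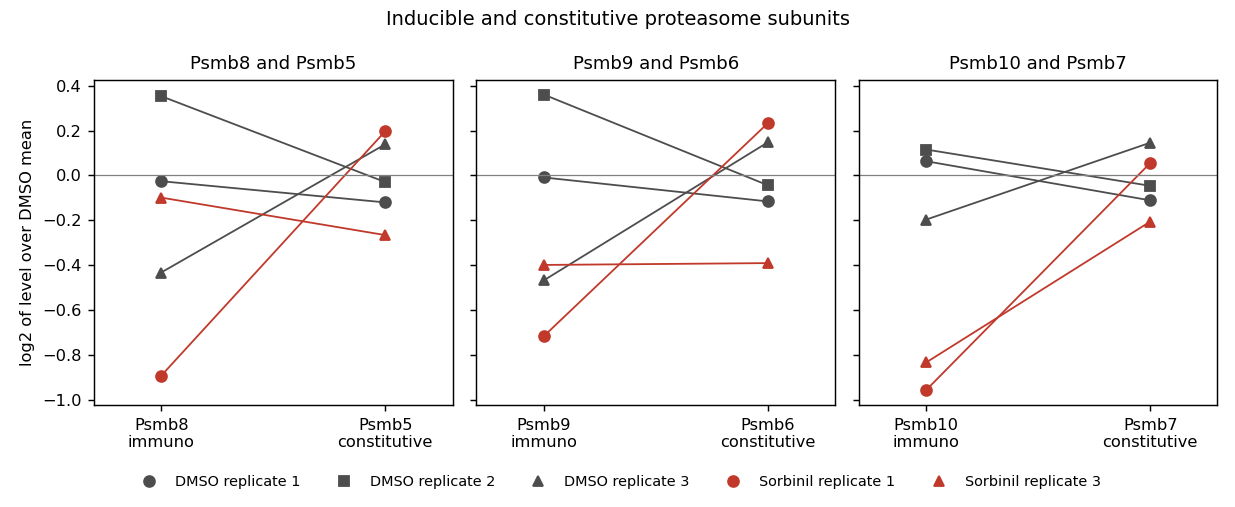
Log2 of the level over the DMSO mean (y axis) of each immunoproteasome subunit and the constitutive subunit it replaces (x axis, 1 panel per pair), with a line joining the values of 1 retina. For Psmb10 both Sorbinil retinas lie at -0.96 and -0.83, below all DMSO retinas, whereas for Psmb8 and Psmb9 DMSO replicate 3 lies below Sorbinil replicate 3. For the constitutive subunits, Sorbinil replicate 3 lies below all DMSO retinas in all 3 panels. Sorbinil replicate 1 lies above them for Psmb5 and Psmb6 and within their range for Psmb7.

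Tap1 and Tap2 encode the chains of the peptide transporter. Tap1 (ENSMUSG00000037321, chromosome 17, 34405996 to 34416199, plus strand) was 8.47, 8.62 and 5.63 CPM with DMSO, against 2.99 and 6.73 CPM with Sorbinil. Sorbinil replicate 1 was at 39.4% of the DMSO mean, the lowest such value of the 10 genes, while Sorbinil replicate 3 lay within the DMSO range. The log2 fold change was -0.64 (SE 0.40; edgeR p = 0.164, exact permutation p = 0.3), and -0.16 without Sorbinil replicate 1. Without Sorbinil replicate 3, where the outlying Sorbinil replicate 1 is the only treated retina, it was -1.34. Tap2 (ENSMUSG00000024339, chromosome 17, 34422501 to 34435829, plus strand) was 13.1, 12.5 and 8.71 CPM with DMSO, against 6.09 and 11.8 CPM with Sorbinil. As for Tap1, Sorbinil replicate 1 alone was below the DMSO range. The log2 fold change of Tap2 was -0.35 (SE 0.34; edgeR p = 0.342, exact permutation p = 0.5), and 0.06 without that retina.

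The ratio of Tap1 to Tap2, per kb, was 0.512, 0.546 and 0.513 with DMSO, against 0.389 and 0.451 with Sorbinil, so that the groups did not overlap, although neither gene was apart on its own. The log2 difference in this ratio was -0.32 (exact two-sided permutation p = 0.1, adjusted p = 0.36 over the 6 ratios compared outside the proteasome pairs). Psmb9, Tap1, Psmb8 and Tap2 lie side by side within 34.9 kb of chromosome 17, and Psmb9 and Tap1 share 743 exonic bases on opposite strands (19.6% of the exons of Psmb9 and 12.4% of those of Tap1). The libraries were stranded, but the strand setting of the counting is not given in the sources used here, and without strand the reads of this stretch cannot be told apart.

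Tapbp, which encodes tapasin (ENSMUSG00000024308, chromosome 17, 34134873 to 34148267, plus strand), had the narrowest spread among the DMSO retinas. It was 140.6, 149.9 and 146.1 CPM with DMSO, against 133.0 and 111.7 CPM with Sorbinil. The groups did not overlap, and here Sorbinil replicate 3 and not replicate 1 was the lower retina. The mean was 146 ± 4.69 CPM (SD, n = 3) with DMSO compared to 122 ± 15.04 CPM (SD, n = 2) with Sorbinil, a 1.19-fold difference with a log2 fold change of -0.25 (SE 0.13; edgeR p = 0.104, adjusted p = 0.758, exact permutation p = 0.1). It was -0.37 without Sorbinil replicate 1 (edgeR adjusted p = 0.589) and -0.13 without Sorbinil replicate 3 (edgeR adjusted p = 0.374). Before adjustment, the p-value of Tapbp was at most 0.1 in 6 of the 14 alternatives, among them other scalings of the libraries and the fit without Sorbinil replicate 1. Tapbp shares 20.9% of its exonic bases with Zbtb22 on the same strand. The log2 fold change of Zbtb22 was 0.22, but this value averages treated retinas that differed. Zbtb22 was at 147% of its DMSO mean in Sorbinil replicate 1 and at 85.7% in Sorbinil replicate 3. The DMSO retinas ranged from 85.4% to 120% of that mean. Tapbp was at 91.4% and 76.8% of its own DMSO mean in Sorbinil replicates 1 and 3. Whether shared reads bear on the Tapbp values was not tested.

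**Figure D3:**
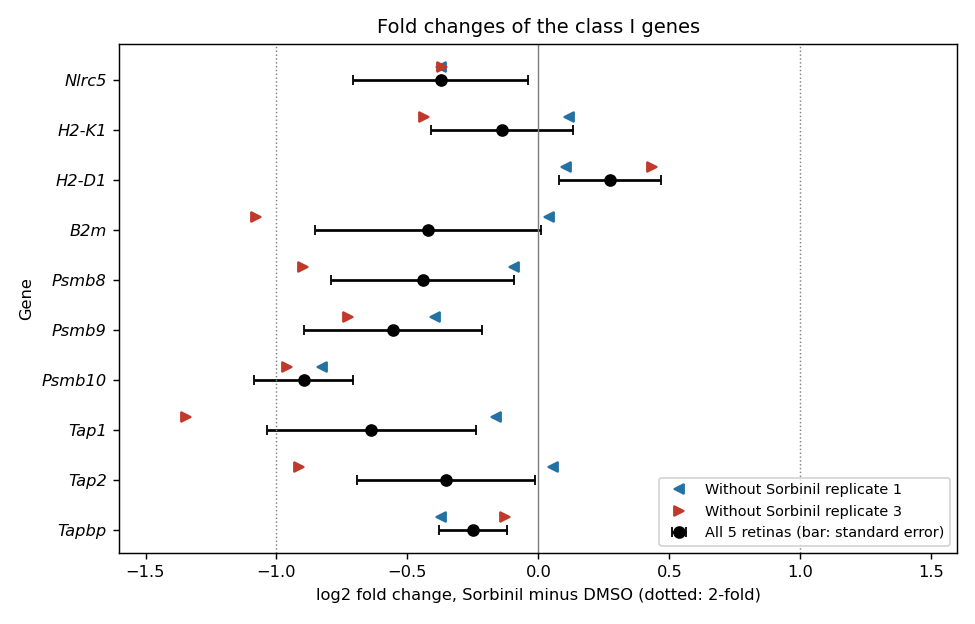
Log2 fold change of each class I presentation gene, Sorbinil compared to DMSO (x axis, dotted lines at 2-fold), with all 5 retinas (black points, bars for the standard error) and without either Sorbinil retina (triangles). For B2m, Psmb8, Tap1 and Tap2 the triangles lie far apart, whereas for Psmb10 they lie at -0.83 and -0.96.

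Per kb of exon, the transcripts of the presenting molecules and tapasin were more abundant than those of the inducible proteasome and the transporter. The length used joins all annotated exons of a gene. For Psmb9 it is 3800 bases, compared to 1353 bases in its longest coding transcript, and for Psmb8 it is 3414 compared to 1702. The order of neighbouring genes can depend on this choice, and no other length was tried. In mean CPM per kb of exon over the 5 retinas, H2-D1 (33.0), Tapbp (30.9), B2m (23.8) and H2-K1 (10.5) came first, each overlapping its neighbour in range over the retinas. After a gap, with no overlap between H2-K1 and Psmb10, came Psmb10 (4.11), Tap2 (2.19), Psmb8 (1.57), Tap1 (1.08) and Psmb9 (0.447), again each overlapping its neighbour. Nlrc5 (0.141) was last, below Psmb9 in every retina. Among the 15 H2 heavy-chain genes, H2-D1 and H2-K1 together held 77.8%, 78.0% and 83.6% of the counts per kb with DMSO, against 89.1% and 83.2% with Sorbinil. H2-D1 alone held 56.5% to 63.3% in DMSO retinas, 74.5% in Sorbinil replicate 1 and 61.2% in Sorbinil replicate 3.

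A further 64 genes of the class I pathway were listed by role, and 54 of them were tested. None passed the study threshold, 33 had a negative and 21 a positive log2 fold change, 4 had a p-value of at most 0.1, and their median was -0.06. Over all 14992 genes tested, 7653 were negative and 11.3% had a p-value of at most 0.1, so that these counts do not set the list apart. Of the other class I heavy chains, 12 of 13 tested genes had a negative log2 fold change (median -0.48), but 0 of them had a p-value of at most 0.1 and in 0 of them were the groups apart. H2-T22, a nonclassical heavy chain, had a log2 fold change of -0.60 (edgeR p = 0.124, exact permutation p = 0.3). H2-T24 was 1.24, 1.56 and 0.414 CPM with DMSO, against 0.457 and 0.663 CPM with Sorbinil (log2 fold change -0.94, edgeR p = 0.176, exact permutation p = 0.4). DMSO replicate 3 was the lowest retina for H2-T24, below both Sorbinil retinas. Leaving out Sorbinil replicate 1 gave -0.48 for H2-T22 and -0.70 for H2-T24.

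Of the 8 constitutive proteasome subunits and activators, 6 were negative (median -0.06). Psme1, a subunit of the interferon-inducible proteasome activator PA28, was 31.2, 28.4 and 27.7 CPM with DMSO, against 12.5 and 25.8 CPM with Sorbinil (log2 fold change -0.60, edgeR p = 0.0996, exact permutation p = 0.1). The groups did not overlap, but most of the difference was in Sorbinil replicate 1, without which the log2 fold change was -0.17. Its partner Psme2 and the proteasome assembly factor Pomp also showed no overlap, with both Sorbinil retinas lower and log2 fold changes of -0.15 (edgeR p = 0.328) and -0.20 (edgeR p = 0.131; exact permutation p = 0.1 for both), and both were named after their values were seen. Without Sorbinil replicate 1 they were -0.16 and -0.25. Psme4, another activator, had a log2 fold change of 0.34 (edgeR p = 0.124, exact permutation p = 0.3), and 0.082 without Sorbinil replicate 1.

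In peptide loading and trimming, 4 of 9 genes were negative and 5 positive (median 0.02). Lnpep, an aminopeptidase that trims peptides in endosomes for cross-presentation, was 185, 195 and 206 CPM with DMSO, against 336 and 257 CPM with Sorbinil. Both Sorbinil retinas were above every DMSO retina, with a log2 fold change of 0.60 (edgeR p = 0.00973, exact permutation p = 0.1, adjusted p = 0.758), and of 0.40 without Sorbinil replicate 1. Tapbpl, the tapasin homolog TAPBPR, had a log2 fold change of -0.77 (edgeR p = 0.108, exact permutation p = 0.2), and -0.29 without that retina.

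The promoter-binding partners of NLRC5 were 6 positive and 1 negative (median 0.07). Creb1 (log2 fold change 0.55, edgeR p = 0.0428) and Nfyb, a subunit of NF-Y (0.33, edgeR p = 0.0654), also had groups that did not overlap, with Sorbinil above DMSO (exact permutation p = 0.1 for both; adjusted p = 0.758 for both). Without Sorbinil replicate 1 the log2 fold change was 0.19 for Creb1 and 0.18 for Nfyb, and neither then had a p-value of at most 0.1. Interferon signalling genes were 8 negative and 6 positive among 14 tested (median -0.006). Irf1, an interferon-induced activator of class I genes, had a log2 fold change of -0.40 (edgeR p = 0.169, exact permutation p = 0.2), and Irf9, a part of the complex formed in type I interferon signalling, one of -0.29 (edgeR p = 0.226, exact permutation p = 0.4). Leaving out Sorbinil replicate 1 gave -0.10 for Irf1 and -0.16 for Irf9. Interferon gamma itself, Ifng, had 0 counts in all 5 retinas.

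The 5 genes outside the list whose levels across the 5 retinas were closest to the mean profile of the class I genes were Adamts17, Vamp1, Syne4, Cebpa and Rab20, with root mean square distances of 0.040, 0.059, 0.065, 0.065 and 0.067 on the centred log2 CPM scale. Of the class I genes themselves, Psmb9 was nearest to their mean, at 0.0999, and H2-D1 was farthest, at 0.413.

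Marker lists of the cell types that a retina can hold were set beside these values. Microglia, the resident immune cells, had all 13 markers lowest in Sorbinil replicate 1, and their summed level was 168 to 248 CPM in DMSO retinas, 112 CPM in Sorbinil replicate 1 and 186 CPM in Sorbinil replicate 3. The order of the retinas was that of the class I median, with DMSO replicate 2 highest and Sorbinil replicate 1 lowest. This order was not particular to microglia, as the summed infiltrating myeloid markers had it too. The endothelium and ganglion cell sums differed from it only in that DMSO replicate 1 was above DMSO replicate 2. The median log2 fold change, with Sorbinil replicate 1 included, was -0.51 over the microglia markers and -0.99 over the 9 endothelium markers. It was -1.09 over the tested infiltrating myeloid, -0.70 over the ganglion cell, -0.54 over the Müller glia and 0.15 over the rod markers. Of the microglia and endothelium markers, 3 and 6, respectively, were below every DMSO retina in both Sorbinil retinas. This was so in 10.5% of all genes tested. It was also so in 3 of the 8 infiltrating myeloid and 2 of the 6 ganglion cell markers. Of the myeloid markers only 4 had enough counts to be tested. For S100a8 and S100a9, 2 of those 3, it rests on 1 count in DMSO replicate 3 against 0 or 1 in the Sorbinil retinas. Both Sorbinil retinas were below every DMSO retina in 0 of the Müller glia, rod, and CD8 T and NK cell markers. Endothelium markers summed to 303 to 472 CPM in DMSO retinas, 162 CPM in Sorbinil replicate 1 and 407 CPM in Sorbinil replicate 3. Kdr and Flt1 made up most of this sum. In Sorbinil replicate 3 they had 18784 and 7389 counts, compared to at most 482 for any other endothelium marker. Müller glia and ganglion cell markers were also lowest in Sorbinil replicate 1 (8 of 8 and 6 of 6 genes). The ganglion cell markers summed to 144 to 230 CPM in DMSO retinas and to 67.0 and 179 CPM in Sorbinil replicates 1 and 3. The part of these shifts in the class I values was not tested.

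The cells that read class I molecules were near or below detection. The 11 CD8 T and NK cell markers summed to 0.252 to 0.425 CPM in DMSO and to 0.400 and 0.265 CPM in Sorbinil retinas, most of it from Cd8a with 14 to 24 counts per retina. Trac had 0 counts in all 5 retinas, Cd3e had 4 counts in DMSO replicate 2 and 0 in the others, and Gzmb had 1 count in DMSO replicate 2 and 0 in the others. A count of 0 allows up to 3 counts in a library. The 8 infiltrating myeloid cell markers summed to 1.94 to 5.83 CPM in DMSO and to 1.45 and 2.20 CPM in Sorbinil retinas, and were highest in DMSO replicate 2, where most class I genes were highest as well. Of the 8 listed immune cell receptors, 3 were tested (2 with a negative log2 fold change), and the myeloid inhibitory receptors Pilra (log2 fold change -0.56, edgeR p = 0.363, exact permutation p = 0.4) and Pirb (-0.38, edgeR p = 0.681, exact permutation p = 0.8) had at most 39 counts per retina. Leaving out Sorbinil replicate 1 moved them to -0.997 and -1.50.

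**Figure D4:**
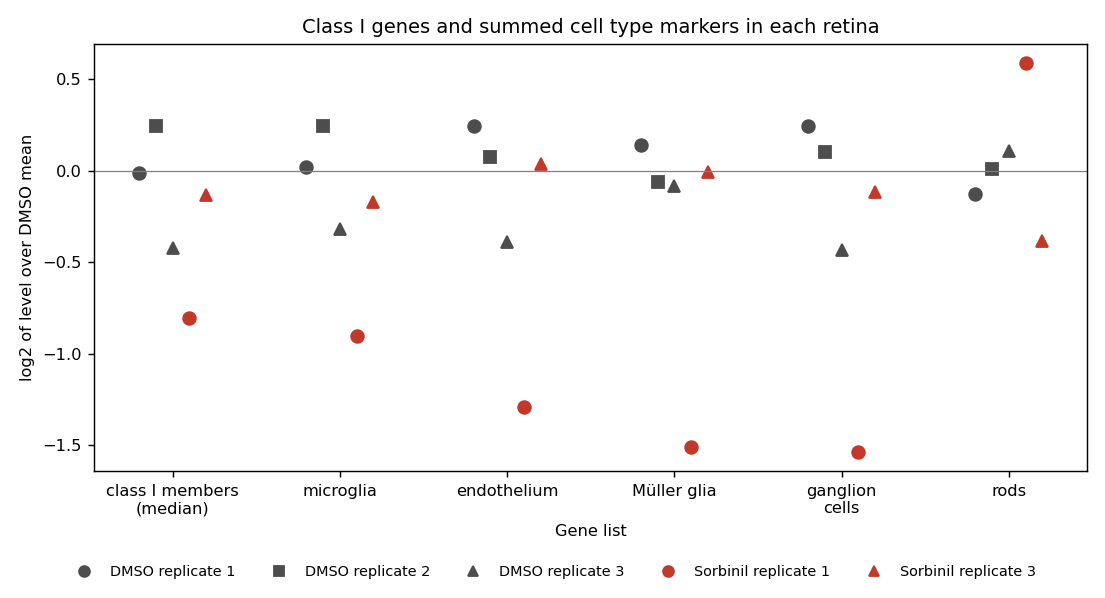
Log2 over the DMSO mean (y axis) of the median level of the class I presentation genes and of the summed markers of 5 cell types (x axis) in each retina. Sorbinil replicate 1 is the lowest retina for the class I genes (-0.81) and for microglia, endothelium, Müller glia and ganglion cells, and the highest for rods, whereas Sorbinil replicate 3 lies within the DMSO range for each of these except rods. The endothelium sum is mostly Kdr and Flt1. Of the 9 endothelium markers, 6 were below every DMSO retina in both Sorbinil retinas.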

How the data were processed

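Total RNA of 5 injured retinas was sequenced as reverse-stranded libraries, per the labels. The authors used CLC Genomics Workbench version 22 at its defaults for mapping to GRCm39, and the deposited values are raw counts for each gene symbol. The annotation release, the strand setting and the handling of reads on several genes are not given in the sources used here, and could move counts between overlapping or near-identical genes. Columns were matched to retinas by the names in the labels.

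The analysis used edgeR 4.0.16 under R 4.3.3 (filterByExpr with a minimum count of 10, TMM, glmQLFit and glmQLFTest, Benjamini-Hochberg adjustment over 14992 genes) and limma 3.58.1. Calls used the threshold of the study, a change of 2-fold or more with p no higher than 0.1 before adjustment. Exact permutation tests used log2(CPM + 0.01) over the 10 groupings of the retinas. Every pair of retinas differed beyond sampling noise, so each was 1 replicate. P-values measure the spread between these mice only. Without molecular identifiers, the counting error understates the technical error. Totals of 56096541 to 90288552 counts make counting error small for all 10 genes but Nlrc5 and Psmb9.

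The genes and lists were chosen with earlier results of these data known. Named genes were the 10 members, of the other class I genes the 2 with the smallest p-value per role, and the 5 genes most alike in profile. Psme2, Pomp, Ifng and the constitutive subunits were named in addition. A gene of the interferon signalling list is not reported here. Positions, exon lengths and overlaps came from GENCODE vM39, which held 23524 of the 25655 symbols, and promoters from RefSeq. The alternatives were other filters and scalings, the likelihood ratio test, DESeq2 1.42.0, the replicate number as a block, a sex term (3 retinas had a Y-linked signal) and leaving out each retina. Leaving out Sorbinil replicate 1 for the other class I genes was chosen after seeing the data. The steps were tested on simulated data.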

Additional observations from a re-analysis of the deposited data

How the results depend on the processing

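Of 140 single-gene alternatives, 133 kept the direction and side of the threshold, 5 reversed and 2 became calls. H2-K1 reversed to 0.07 without DMSO replicate 2 and to 0.12 without Sorbinil replicate 1, within a range of -0.44 to 0.12 over the left-out retinas. B2m ranged from -1.08 to 0.039 and Tap2 from -0.91 to 0.055, both reversed without Sorbinil replicate 1. The cause was not tested. Between 0 and 2 of the 10 genes were called when 1 retina was left out, the 2 being B2m and Tap1 without Sorbinil replicate 3. Their median log2 fold change ranged from -0.81 without Sorbinil replicate 3 to -0.13 without Sorbinil replicate 1, and that of the mean immunoproteasome ratio from -0.998 to -0.13. With 1 Sorbinil retina, the lone retina is assumed to vary like the DMSO retinas. Without Sorbinil replicate 3 many genes of the whole table were called, so nothing is read from the calls of B2m and Tap1. With the replicate block, 0 of the 10 genes were called beside 1.35% of all genes, their median was -0.25 and H2-K1 reversed to 0.053. The numbers do not mark shared animals. Whether same-numbered retinas deviated together cannot be told from correlations of their deviations from the group mean. The deviations of the 2 Sorbinil retinas mirror each other (correlations of -0.24 and 0.24 with DMSO replicate 1). Over all genes, the 257 calls became 148 with at least 10 counts in every retina, 408 with no filter on low counts, 164 without DMSO replicate 1 and 2903 without Sorbinil replicate 3. Scaling by library size only moved the median of all genes to -0.11 and kept the order of all 10 genes per kb of exon. Such scaling changes all genes of a retina by the same factor, so it could hardly alter that order. The exon length used was not varied. Nlrc5, with 52 to 141 counts per retina, had the fewest counts of the 10, while the standard error of the log2 fold change was highest for B2m (0.43).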
